A study of Mus musculus with 8 samples.

Results

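The replicative CMG helicase is the enzyme that unwinds DNA ahead of each replication fork, and its subunit genes were followed here across the Jak2WT and Jak2V617F backgrounds with and without the glucose transporters GLUT1 and GLUT3. The members were chosen by name, as the rows of the deposited expression table for the MCM ring genes Mcm2 to Mcm7, for Cdc45 and for the GINS genes Gins1, Gins2 and Gins3. All 10 names were found among the 56748 genes listed, and all 10 were among the 11818 genes with enough signal to be tested, meaning that 2 or more of the 8 libraries reached 1 FPKM. In brief, every member was lowest in Jak2V617F GLUT1/3 WT cells. Every member was called higher in Jak2V617F GLUT1/3 dKO cells than there, against 13.7% of all genes tested. The dKO in Jak2WT cells moved none of the 10 past the threshold. There 13.7% of all genes were called in either direction, a share at which few of 10 genes would pass.

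In a cell that prepares to divide, the MCM proteins are loaded onto replication origins as an inactive double ring around the DNA. At the start of S phase, kinases and loading factors recruit Cdc45 and the GINS complex to this ring, and the joined machine, named CMG after Cdc45, MCM and GINS, then travels with the fork and separates the strands. The genes of these subunits are known targets of the E2F transcription factors, and their transcripts are typical of proliferating cells such as haematopoietic progenitors.

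32D is a mouse myeloblast-like bone marrow cell line that needs interleukin-3 (IL-3) to grow. All cells used here carried a transgene for murine Jak2WT or Jak2V617F, the activated kinase of myeloproliferative neoplasms. In the GLUT1/3 dKO clones, Slc2a1 (GLUT1) and Slc2a3 (GLUT3) had both been targeted with CRISPR-Cas9, and dKO clones were grown from single cells. The 4 groups, Jak2WT GLUT1/3 WT, Jak2WT GLUT1/3 dKO, Jak2V617F GLUT1/3 WT and Jak2V617F GLUT1/3 dKO, each held 2 clones, numbered 1 and 3, so a difference between groups is also a difference between small sets of clones. Before lysis all clones had spent 24 h in a low-supplement medium with 2 ng/ml IL-3, in which glucose was 5 mM and glutamine 1 mM, after which poly-A RNA was sequenced.

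The libraries held 16846011 to 48884329 reads on genes, and the members with the fewest reads were Gins1, with 206 to 862 reads per library, and Gins2, with 260 to 749. With the dKO, Slc2a1 fell by 2.204 on the log2 scale in Jak2WT cells (adjusted p = 0.000872) and fell by 1.90 in Jak2V617F cells (adjusted p = 0.000444). Slc2a3 fell by 2.39 in Jak2V617F cells (adjusted p = 0.0115), while in Jak2WT cells its change was -1.71 with an adjusted p of 0.0612, the dKO clones 1 and 3 lying at 16.0 and 49.5 FPKM. These and all later fold changes are from limma on log2(FPKM + 1) with Benjamini-Hochberg adjustment over the 11818 genes and a threshold of 0.05, and the added 1 makes them smaller than the ratio of the values for genes with a low FPKM. Of 7 genes listed as myeloid markers, Ptprc, which marks blood cells in general, and Spi1 were detected in every library. By contrast Cebpa was at 0 in all 8, and Mpo, Elane and Csf3r did not exceed 0.121 FPKM. Itgam, the remaining gene of the list, did not have enough signal to be tested.

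Promoter sequences show a feature that several members share and that played no part in choosing them. RefSeq promoter windows on GRCm38.p6, from 250 bases before to 50 bases after the transcription start, were at hand for 7 of the 10 members, as 8 windows because Mcm7 had 2; Mcm4, Gins1 and Gins2 had no entry. Each window was searched on both strands for 6 spellings of an E2F element, namely TTTCCCGC, TTTGGCGC, TTTGGCGG, TTTCCCGG, TTTCGCGC and TTTGCCGC. A spelling was present in 5 of the 8 member windows, those of Mcm3, Mcm5, Mcm6, Mcm7 and Gins3, and in 3.99% of all 32851 windows of this length. The shorter element CCAAT stood in 8 of 8 member windows and in 37.4% of all windows. The 180 bases upstream of the start are shown for the members whose E2F spelling lies there, 5′ to 3′ on the strand of the gene, with the matches in capitals. They lie at chr1:128359706-128359885 (reverse strand) for Mcm6, chr8:75109329-75109508 (forward) for Mcm5, chr5:138171884-138172063 (reverse) for Mcm7 and chr8:95633379-95633558 (forward) for Gins3.
Mcm6: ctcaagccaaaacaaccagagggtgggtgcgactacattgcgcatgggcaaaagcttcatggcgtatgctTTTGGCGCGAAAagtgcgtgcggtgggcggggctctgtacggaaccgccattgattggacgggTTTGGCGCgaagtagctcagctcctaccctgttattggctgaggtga
Mcm5: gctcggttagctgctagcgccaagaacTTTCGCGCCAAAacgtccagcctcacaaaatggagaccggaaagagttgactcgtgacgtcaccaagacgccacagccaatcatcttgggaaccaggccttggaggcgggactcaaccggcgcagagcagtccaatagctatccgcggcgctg
Mcm7: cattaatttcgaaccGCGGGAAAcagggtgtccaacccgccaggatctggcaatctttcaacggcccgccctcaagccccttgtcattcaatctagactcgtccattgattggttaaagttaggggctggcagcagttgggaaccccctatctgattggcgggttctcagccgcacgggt
Gins3: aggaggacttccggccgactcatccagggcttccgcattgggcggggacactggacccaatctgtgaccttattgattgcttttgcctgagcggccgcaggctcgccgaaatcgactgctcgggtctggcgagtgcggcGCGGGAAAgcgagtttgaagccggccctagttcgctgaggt
In Mcm6 and Mcm5 spellings on opposite strands overlap, so that the first run of capitals in Mcm6 holds TTTGGCGC and, on the other strand, TTTCGCGC. In Mcm3 the matches lie after the transcription start, 20 and 39 bases in, and Mcm7 has a further match at base 17 after the start, TTTCGCGC. These are not shown in the lines above. A match of letters is a description of the sequence and does not show that a factor binds there.

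Levels between genes can be compared on the FPKM scale, which divides by gene length. Among the MCM genes, Mcm6 was the most abundant in every library, from 50.5 to 127 FPKM, and Mcm2 the least, from 13.4 to 35.6 FPKM. Mcm3, Mcm4, Mcm5 and Mcm7 lay between 21.5 and 86.1 FPKM. Cdc45 ranged from 5.18 to 19.8, Gins1 from 5.22 to 15.7, Gins3 from 5.45 to 11.6 and Gins2 from 2.13 to 4.98 FPKM. The GINS members lay below Cdc45 within each library except Jak2V617F GLUT1/3 WT clone 3, where Gins1 and Gins3 (5.22 and 5.60 FPKM) were just above Cdc45 (5.18 FPKM). Together the 10 members took 0.0845 and 0.0952% of the reads on genes in the Jak2V617F GLUT1/3 WT clones and 0.170 to 0.227% in the 6 other libraries.

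**Figure D1:**
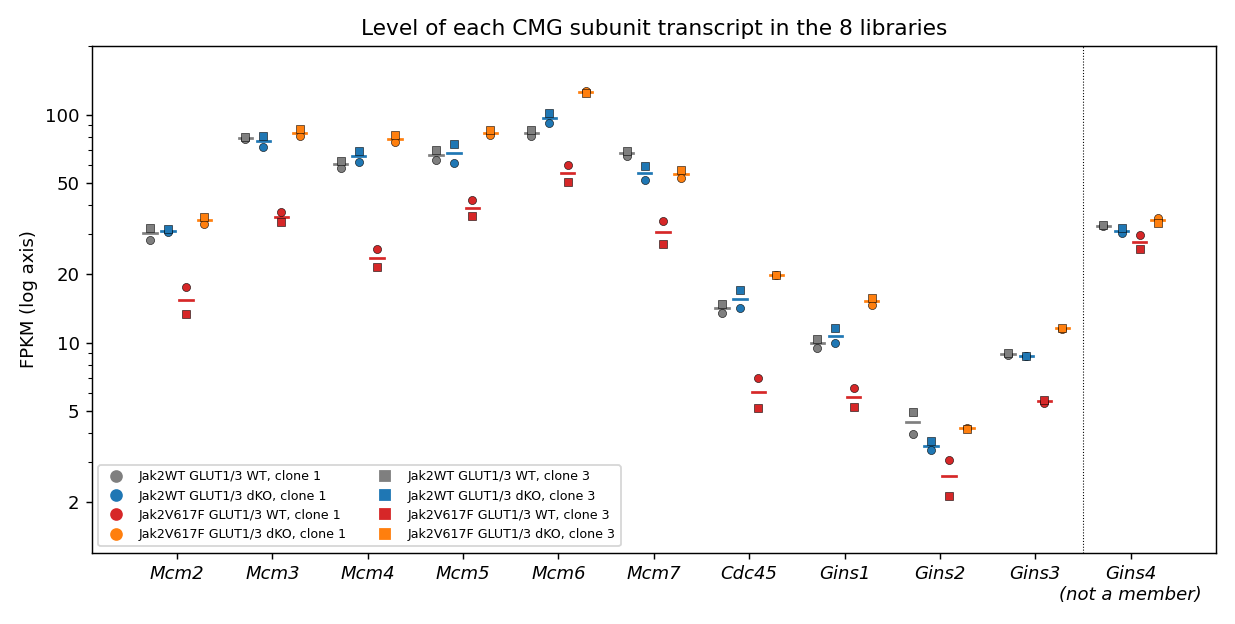
FPKM on a log axis for each member and for Gins4, which is not a member, with a point for each clone (circle, clone 1; square, clone 3), a bar at the group mean and the groups in colour. For all 10 members both Jak2V617F GLUT1/3 WT clones (red) lie below the other 6 libraries, while Gins4 spans only 25.8 to 35.4 FPKM.

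The first comparison asked what loss of both transporters does in Jak2V617F cells. All 10 members were higher in the Jak2V617F clones with the dKO than in those without it, against 13.7% of all genes tested that were called higher there. Both dKO clones lay above both WT clones for all 10, as they did for 29.9% of all genes. The median log2 change of the members was 1.14, beside -0.02 over all genes, and the range ran from 0.55 for Gins2 to 1.70 for Mcm4. Gins2 was the weakest of these calls, and 5 alternative analyses lost it.

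Within the MCM ring, the hexamer that encircles the leading strand template, Mcm4 moved the most. Mcm4 (ENSMUSG00000022673, chr16:15441761-15455264 on the reverse strand of GRCm39) stood at 25.7 and 21.5 FPKM in the Jak2V617F GLUT1/3 WT clones 1 and 3 and at 75.9 and 81.1 FPKM in the dKO clones. Both dKO clones were far above both WT clones, a log2 change of 1.70 (SE 0.11, adjusted p = 0.000360).

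Mcm3 (ENSMUSG00000041859, chr1:20873192-20890536, reverse strand) was at 37.3 and 33.8 FPKM in the WT clones and at 80.4 and 86.1 FPKM in the dKO clones. Mcm6 (ENSMUSG00000026355, chr1:128259327-128287401, reverse strand) was at 60.1 and 50.5 FPKM without and at 127 and 124 FPKM with the dKO. In neither gene did the groups overlap, and the log2 changes were 1.21 (SE 0.09, adjusted p = 0.000390) and 1.17 (SE 0.10, adjusted p = 0.000575).

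Mcm2, the subunit that also carries parental histones at the fork (ENSMUSG00000002870, chr6:88860456-88875762, reverse strand), was at 17.5 and 13.4 FPKM in WT clones and at 33.1 and 35.6 FPKM in dKO clones. Mcm5, which forms the gate of the ring with Mcm2 (ENSMUSG00000005410, chr8:75836197-75855067, forward strand), was at 42.4 and 35.9 FPKM and at 81.1 and 85.7 FPKM. Their log2 changes were close, 1.11 (SE 0.13) and 1.08 (SE 0.12), with adjusted p = 0.00136 and 0.00131.

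Mcm7 (ENSMUSG00000029730, chr5:138162845-138170684, reverse strand) changed the least in the ring, from 34.0 and 27.1 FPKM in the WT clones to 52.7 and 57.2 FPKM in the dKO clones. The groups were again apart, with a log2 change of 0.83 (SE 0.12, adjusted p = 0.00328). Its annotated span shares 64 and 421 bases with Cops6 and Ap4m1 on the opposite strand, and the strand setting of the counting was not stated. In the same comparison Cops6 fell by 0.56 and Ap4m1 fell by 0.39 on the log2 scale (adjusted p = 0.0142 and 0.0422).

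Cdc45, which joins the loaded ring when an origin fires (ENSMUSG00000000028, chr16:18599197-18630737, reverse strand), was at 7.01 and 5.18 FPKM in the Jak2V617F GLUT1/3 WT clones and at 19.8 FPKM in each of the dKO clones. The log2 change was 1.57 (SE 0.14, adjusted p = 0.000583), and its 95% interval from 1.24 to 1.89 overlapped that of Mcm4, from 1.44 to 1.95. Cdc45 shares 209 bases with Ufd1 on the opposite strand, a gene with up to 2052 reads per library, which was higher in the same comparison (0.47, adjusted p = 0.00671).

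Of the GINS genes, which encode a small complex that clamps Cdc45 to the ring, Gins1 (ENSMUSG00000027454, chr2:150747320-150773200, forward strand) went from 6.34 and 5.22 FPKM to 14.7 and 15.7 FPKM. Gins3 (ENSMUSG00000031669, chr8:96360081-96371688, forward strand) went from 5.45 and 5.60 FPKM to 11.5 and 11.6 FPKM. The log2 changes were 1.26 (SE 0.11, adjusted p = 0.000583) for Gins1 and 0.94 (SE 0.07, adjusted p = 0.000390) for Gins3.

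Gins2 (ENSMUSG00000031821, chr8:121305372-121316043, reverse strand) was at 3.05 and 2.13 FPKM in WT and at 4.23 and 4.19 FPKM in dKO clones, a log2 change of 0.55 (SE 0.15, adjusted p = 0.0287). The WT clones differed from each other by nearly as much as the higher of them differed from the dKO clones. The annotated span of Gins2 shares 2758 bases with that of Gse1 on the opposite strand, a gene with up to 6311 reads per library. Whether exons overlap was not examined, and reads from any shared exon cannot be assigned without the strand setting. Gse1 itself went the other way, with a log2 change of -0.28 (adjusted p = 0.152).

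**Figure D2:**
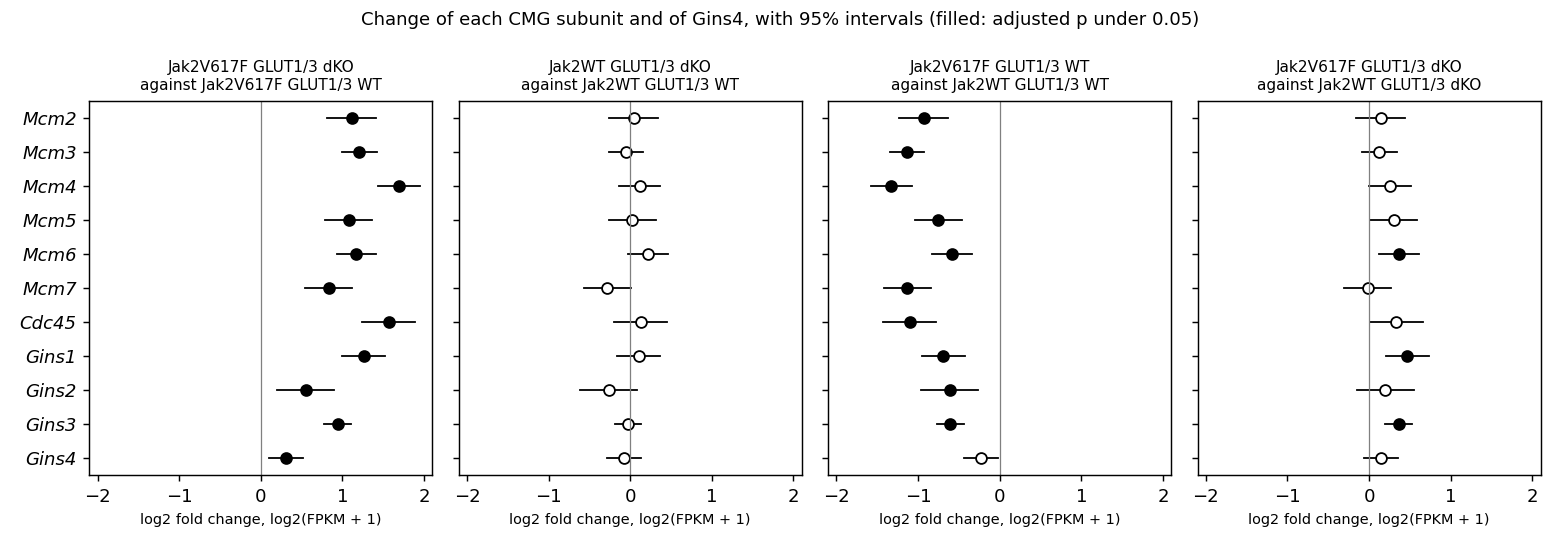
Log2 fold change on the log2(FPKM + 1) scale with its 95% interval for each member and for Gins4 in 4 comparisons, filled where the adjusted p is under 0.05. All 10 members are filled above 0 in Jak2V617F dKO against WT and below 0 in Jak2V617F WT against Jak2WT WT, none is filled in Jak2WT dKO against WT, and 3 are filled in the comparison of the dKO groups.

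The same knockout was then examined in the Jak2WT background. Here 0 of the 10 members passed the limma test, against 13.7% of all genes called in either direction, and 0 had an unadjusted p under 0.05. Voom on recovered reads called 0 as well. The median log2 change was 0.03, beside 0.01 over all genes, with a range from -0.28 for Mcm7 to 0.22 for Mcm6.

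The largest changes of either sign in Jak2WT cells were those of 2 ring partners. Mcm7 was at 65.8 and 69.5 FPKM in the Jak2WT GLUT1/3 WT clones and at 51.9 and 59.4 FPKM in the dKO clones (log2 change -0.28, 95% interval -0.57 to 0.01, adjusted p = 0.169). Mcm6 was at 80.5 and 85.5 FPKM in the WT clones and at 92.2 and 102 FPKM in the dKO clones (log2 change 0.22, interval -0.02 to 0.46, adjusted p = 0.194). The clones of the groups were apart in both genes, in opposite directions. They were also apart for Gins2 and Gins3, which were lower with the dKO at -0.27 and -0.03, so 1 member lay apart and higher and 3 apart and lower, beside 34.1 and 32.0% of all genes.

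For the other members the Jak2WT clones overlapped. Mcm4 was at 58.3 and 62.5 FPKM in WT and at 61.7 and 69.6 FPKM in dKO clones, and Cdc45 at 13.5 and 14.7 FPKM and at 14.2 and 17.0 FPKM. The 95% intervals of their log2 changes, -0.14 to 0.37 and -0.20 to 0.46, do not reach the changes of 1.70 and 1.57 measured in Jak2V617F cells.

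The difference between the backgrounds was tested directly as the interaction of background and knockout. It was positive and passed the threshold for all 10 members, against 4.72% of all genes called higher, with a median of 1.09 on the log2 scale beside -0.04 over all genes. Mcm4 (1.58, SE 0.15, adjusted p = 0.00867), Cdc45 (1.44, SE 0.20, adjusted p = 0.0123) and Mcm3 (1.26, SE 0.13, adjusted p = 0.00867) had the largest values, and Gins2 the smallest (0.81, SE 0.21, adjusted p = 0.0497). The Gins2 call was lost in 11 of 17 alternative analyses, the replicate block among them, with an adjusted p of up to 0.163, and a fit with no filter left 6 members. The direction was stable when single libraries were left out, but the count was not. Without clone 3 of Jak2WT GLUT1/3 WT, the smallest library, 0 members passed and the lowest adjusted p was 0.0526, and without clone 1 of Jak2WT GLUT1/3 WT or clone 1 of Jak2WT GLUT1/3 dKO 3 members passed.

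Among the GLUT1/3 WT clones, Jak2V617F was compared with Jak2WT to show the state of the helicase genes with both transporters present. All 10 members were lower in Jak2V617F cells, against 14.9% of all genes called lower, and both Jak2V617F clones lay below both Jak2WT clones for all 10, as for 33.6% of all genes. The median log2 change was -0.84, beside 0.01 over all genes. The comparison shares the Jak2V617F GLUT1/3 WT clones with the first, so those clones enter both with opposite sign.

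Mcm4 was at 58.3 and 62.5 FPKM in the Jak2WT and at 25.7 and 21.5 FPKM in the Jak2V617F clones, and it fell by 1.32 on the log2 scale (SE 0.11, adjusted p = 0.000490). Mcm3 was at 78.3 and 79.8 FPKM in Jak2WT and at 37.3 and 33.8 FPKM in Jak2V617F cells, and fell by 1.13 (SE 0.09, adjusted p = 0.000438). Mcm7 and Cdc45 dropped by 1.13 and 1.10 (adjusted p = 0.00129 and 0.00200). In each of these genes the higher Jak2V617F clone lay well below the lower Jak2WT clone.

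The decrease was smaller for Mcm2 (-0.93), Mcm5 (-0.75), Gins1 (-0.69), Gins2 (-0.61) and Gins3 (-0.61), and smallest for Mcm6 (-0.58, SE 0.10, adjusted p = 0.00640). Mcm6 was at 80.5 and 85.5 FPKM in Jak2WT and at 60.1 and 50.5 FPKM in Jak2V617F cells. A fit with no filter left 9 members called, Gins2 being the one lost. Leaving out clone 3 of Jak2WT GLUT1/3 WT took the adjusted p of Mcm6 to 0.0513 and that of Gins2 to 0.121, and the 8 other members stayed past the threshold. Gse1, the antisense neighbour of Gins2, was higher here by 0.52 (adjusted p = 0.0234), while Cops6 and Ap4m1 changed by 0.12 and 0.11 (adjusted p = 0.506 and 0.498).

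Between the dKO groups the backgrounds differed less. Jak2V617F GLUT1/3 dKO cells were higher than Jak2WT GLUT1/3 dKO cells for 3 of 10 members, Gins1 (0.47, adjusted p = 0.0310), Gins3 (0.36, adjusted p = 0.0142) and Mcm6 (0.37, adjusted p = 0.0496), against 7.12% of all genes called higher. The clones were apart and higher for 9 members, beside 27.5% of all genes, and overlapped for Mcm7 (-0.02). These calls were fragile, since a fit of only the 4 libraries concerned left 0 of them, as did the fits without clone 1 or without clone 3 of Jak2WT GLUT1/3 dKO, while leaving out any single clone of Jak2WT GLUT1/3 WT or of Jak2V617F GLUT1/3 dKO left 1.

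Jak2V617F GLUT1/3 dKO cells were also set against Jak2WT GLUT1/3 WT cells, which differ from them in both the kinase and the transporters. Here 5 members were higher, against 14.9% of all genes called higher, namely Mcm6 (0.59, adjusted p = 0.00563), Gins1 (0.57, adjusted p = 0.00889), Cdc45 (0.46, adjusted p = 0.0408), Mcm4 (0.37, adjusted p = 0.0371) and Gins3 (0.34, adjusted p = 0.0107). The clones lay apart and higher for 8 members, beside 33.6% of all genes. Mcm7 alone lay apart and lower, beside 35.9% of all genes, at 52.7 and 57.2 FPKM in place of 65.8 and 69.5 FPKM (log2 change -0.30, adjusted p = 0.107). A single call (1) was left without clone 1 of Jak2WT GLUT1/3 WT, 2 calls were left without clone 3 of that group, and 3 calls were left without either of the Jak2V617F GLUT1/3 dKO clones.

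The order of the 4 groups was therefore nearly the same for every subunit. Jak2V617F GLUT1/3 WT was the lowest group for all 10 and did not overlap the next. Jak2V617F GLUT1/3 dKO was the highest for 8 and did not overlap the one below it, and the Jak2WT groups between them overlapped for 6 of the 8, Mcm6 and Gins3 being the exceptions. For Mcm7 the highest group was Jak2WT GLUT1/3 WT, apart from Jak2WT GLUT1/3 dKO, which overlapped Jak2V617F GLUT1/3 dKO. For Gins2 Jak2WT GLUT1/3 WT was also the highest, but its clones, at 3.97 and 4.98 FPKM, overlapped those of Jak2V617F GLUT1/3 dKO. The highest group mean exceeded the lowest by 1.73-fold for Gins2 and by 3.33-fold for Mcm4. How many of all genes follow such an order of 4 groups was not counted. For single pairs, Jak2V617F GLUT1/3 WT clones lay apart below the Jak2V617F dKO clones for 29.9% of all genes. They lay apart below the Jak2WT GLUT1/3 WT clones for 33.6%.

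The 6 MCM proteins occupy the ring in equal number, so the share of each gene in the summed FPKM of Mcm2 to Mcm7 was examined next. The sum itself was 217 and 182 FPKM in the Jak2V617F GLUT1/3 WT clones and 370 to 470 FPKM in the other 6 libraries. Mcm2 took 7.47 to 7.90% in the group means, and the shares of the other ring genes differed between groups. Mcm3 held 19.3 to 20.9% in the Jak2WT libraries and 17.2 to 18.5% in the Jak2V617F libraries. Mcm5 held 19.5 and 19.7% in the Jak2V617F GLUT1/3 WT clones, above the 16.6 to 18.2% of the other 6 libraries.

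Mcm4 held 11.8 ± 0.00750% of the sum in Jak2V617F GLUT1/3 WT cells (SD, n = 2) and 17.1 ± 0.276% in Jak2V617F GLUT1/3 dKO cells. In the Jak2WT background it held 15.6 ± 0.0732% without and 16.7 ± 0.0155% with the dKO. The low share was thus seen in both Jak2V617F GLUT1/3 WT clones and in no other library.

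The share of Mcm7 was lower with the dKO in both backgrounds, at 17.5 ± 0.107 and 14.1 ± 0.167% in Jak2WT cells and at 15.3 ± 0.560 and 11.9 ± 0.320% in Jak2V617F cells. That of Mcm6 was 21.5 ± 0.0364 and 24.7 ± 0.393% in Jak2WT cells without and with the dKO. In Jak2V617F cells Mcm6 held 27.7 ± 0.00118 and 27.3 ± 1.22%, which overlap. Counted as shares of reads, which are not divided by gene length, Mcm7 went from 17.9 to 14.4% and from 15.4 to 12.2%. With 2 clones against 2 the smallest p of a two-sided exact permutation test is 0.33, and no test was made of these shares or of the ratios that follow, for which the separation of the clones is given.

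**Figure D3:**
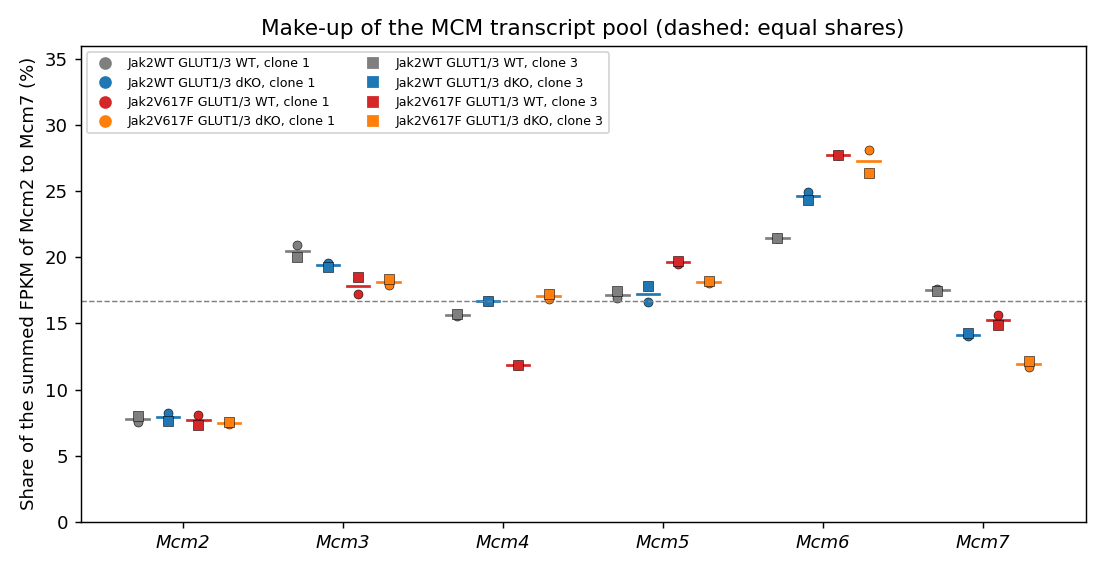
Share in percent of each MCM gene in the summed FPKM of Mcm2 to Mcm7 in each library, with a bar at the group mean and a dashed line where all shares would be equal. Mcm4 drops to 11.8% in Jak2V617F GLUT1/3 WT cells only, and Mcm7 is lower in the dKO clones of either background than in its WT clones.

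The ratio of Mcm6 to Mcm7, which with Mcm4 form the catalytic core of the ring, puts both movements into a single number for each library. It was 1.22 and 1.23 in Jak2WT GLUT1/3 WT clones, 1.78 and 1.71 in Jak2WT GLUT1/3 dKO clones, 1.77 and 1.86 in Jak2V617F GLUT1/3 WT clones and 2.40 and 2.17 in Jak2V617F GLUT1/3 dKO clones. Within each background the dKO clones were above the WT clones, and within each GLUT1/3 genotype the Jak2V617F clones were above the Jak2WT clones, with the 2 middle groups overlapping each other. The ratio of the MCM genes (geometric mean) to Cdc45 was 4.805 and 5.40 in Jak2V617F GLUT1/3 WT clones, 4.39 and 4.31 in Jak2WT GLUT1/3 WT clones, 4.13 and 3.85 in Jak2WT GLUT1/3 dKO clones and 3.48 and 3.69 in Jak2V617F GLUT1/3 dKO clones. No 2 groups overlapped in this ratio, so relative to the ring, Cdc45 was scarcest where the whole set was lowest.

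GINS has a subunit outside the 10 members, Gins4 (ENSMUSG00000031546, chr8:23716632-23727675, reverse strand), and it was described after its values were seen. Gins4 was at 29.7 and 25.8 FPKM in Jak2V617F GLUT1/3 WT clones and at 35.4 and 33.6 FPKM in the dKO clones (log2 change 0.31, SE 0.09, adjusted p = 0.0381). In the Jak2WT background it was at 32.3 and 32.9 FPKM and at 30.1 and 31.9 FPKM (-0.07, adjusted p = 0.625). The order of the groups matched that of Gins3, but the highest group mean was only 1.24-fold above the lowest. The 95% interval of its change in Jak2V617F cells, 0.10 to 0.52, lay below those of Gins1 (1.00 to 1.52) and Gins3 (0.78 to 1.11) and overlapped that of Gins2 (0.20 to 0.89). Its interaction value was 0.38 (adjusted p = 0.0963), and the Jak2V617F against Jak2WT change among GLUT1/3 WT clones was -0.23 (adjusted p = 0.0908). Gins4 was 4.24 to 4.67 times the geometric mean of Gins1, Gins2 and Gins3 in the Jak2WT clones, 6.28 and 6.51 times in Jak2V617F GLUT1/3 WT clones and 3.95 and 3.67 times in Jak2V617F GLUT1/3 dKO clones.

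**Figure D4:**
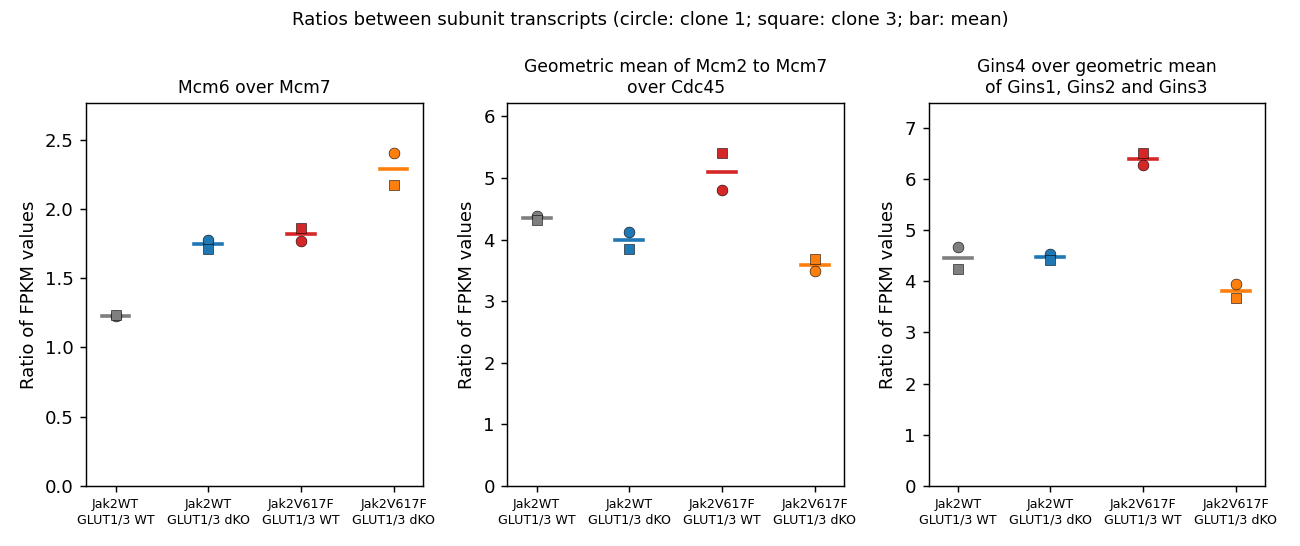
Ratios of FPKM values within each library by group, from 0 upward, with a bar at the mean of the 2 clones. Mcm6 over Mcm7 runs from 1.22 in Jak2WT GLUT1/3 WT to 2.40 in Jak2V617F GLUT1/3 dKO, and the MCM to Cdc45 and Gins4 to other GINS ratios are both highest in Jak2V617F GLUT1/3 WT, at up to 5.40 and 6.51.

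The genes that act beside the helicase were read from 7 further lists, each described by its counts, with the share of all genes called given once for each comparison and direction. In Jak2V617F dKO against WT, 12 of 12 fork partners, the polymerases and fork protection factors that travel with CMG, were higher, with a median log2 change of 0.97, where 13.7% of all genes were called higher. The largest was that of Clspn, the checkpoint mediator claspin (1.59, adjusted p = 0.000860). Of 9 helicase activation genes 7 were higher and 0 lower, led by Donson, which brings GINS to the ring (1.34, adjusted p = 0.000354), and with Gins4, described above, among the 7.

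Origin recognition and MCM loading genes were split. Of 9, 5 were higher, led by the MCM loader Cdc6 (2.17, adjusted p = 0.000519), and 2 were lower, beside 16.2% of all genes called lower. Orc5, a subunit of the origin recognition complex, fell by 0.66 (adjusted p = 0.00142). Of 3 MCM paralogs and binding proteins tested, 2 were higher, the larger change being that of Mcmbp, which binds free MCM proteins (0.42, adjusted p = 0.0122).

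Of 8 genes of helicase unloading, which takes CMG off the DNA when forks meet, 3 were higher, led by the ubiquitin ligase Traip (1.06, adjusted p = 0.000862), and Faf1, a cofactor of the unfolding enzyme p97, fell by 0.52 (adjusted p = 0.00285). E2F and pocket protein genes were higher for 7 of 13, led by E2f2 (1.55, adjusted p = 0.00415), and lower for E2f5, which fell by 0.62 (adjusted p = 0.00293). Of 16 G2 and M phase genes 6 were higher and 0 lower, with a median of 0.12, the largest change being that of the chromosomal passenger Birc5 (0.80, adjusted p = 0.00121). The median of the CMG members, 1.14, was above that of each of the 7 lists.

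With the dKO in Jak2WT cells, 7.62% of all genes were called higher and 6.06% lower, and most genes of the 7 lists did not pass. The fork partner Pole4 was higher (0.65, adjusted p = 0.00780) and the origin subunit Orc5 lower (-0.36, adjusted p = 0.0269), each alone in its list. The E2F and pocket protein list had 2 higher, led by E2f6 (0.63, adjusted p = 0.0182), and 2 lower, led by Rbl2 (-0.57, adjusted p = 0.0205), and the unloading, activation and paralog lists had none. Of the G2 and M phase genes 5 of 16 were lower, led by the mitotic kinase Plk1 (-0.73, adjusted p = 0.00952), with a list median of -0.35.

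In Jak2V617F against Jak2WT cells with both transporters, 8 of 12 fork partners were lower, where 14.9% of all genes were called lower, led by Timeless (-0.91, adjusted p = 0.00180), as were 6 of 9 activation genes, led by Donson (-1.07, adjusted p = 0.000379). Origin and loading genes had 4 lower, led by Cdc6 (-1.24, adjusted p = 0.00318), and Orc3 higher (0.52, adjusted p = 0.00266). The paralog list had Mcmbp lower (-0.85, adjusted p = 0.00102). Unloading genes had 4 lower, led by Lrr1 (-0.66, adjusted p = 0.0125), and Faf1 higher (0.50, adjusted p = 0.00328), the E2F and pocket protein list 4 lower, led by E2f8 (-0.90, adjusted p = 0.00529), and E2f6 higher (0.54, adjusted p = 0.0139), beside 15.3% of all genes called higher. Of the G2 and M phase genes 8 of 16 were lower, led by Plk1 (-0.997, adjusted p = 0.00129), with a list median of -0.45 where the CMG median was -0.84.

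**Figure D5:**
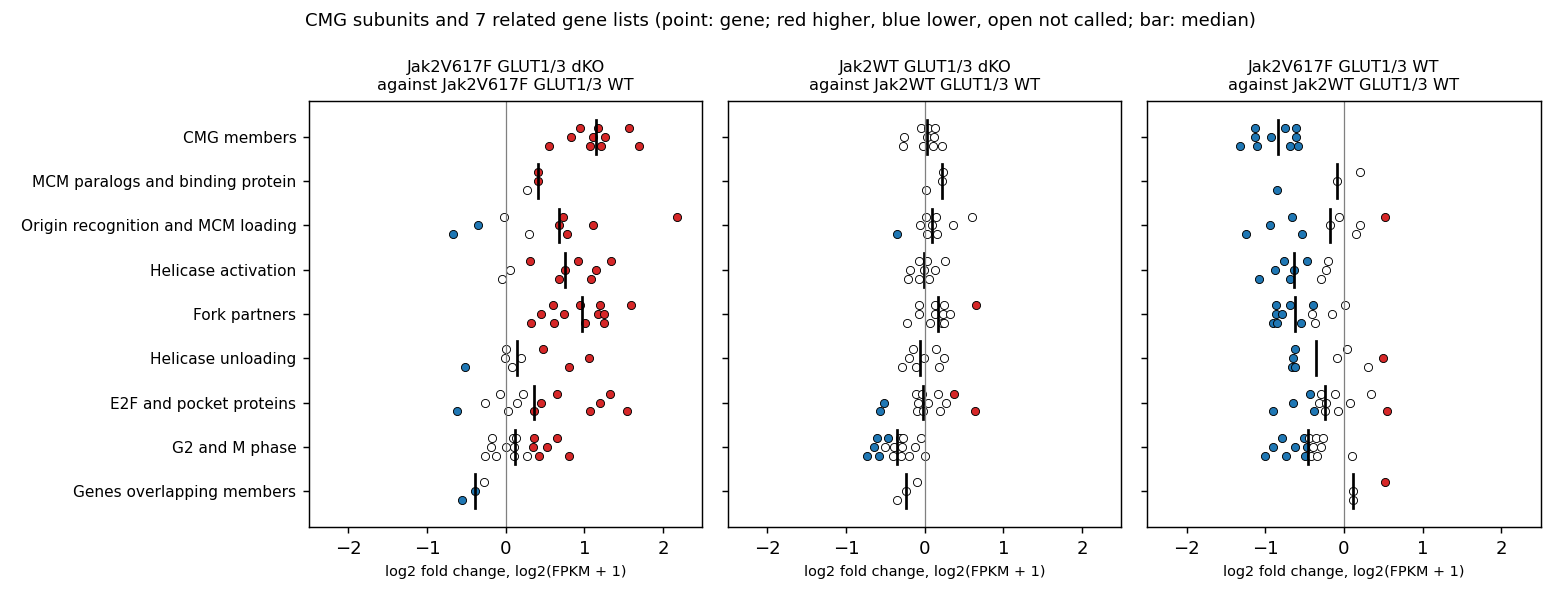
Log2 fold change of each gene of the CMG set and of 7 related lists in 3 comparisons, on the log2(FPKM + 1) scale, coloured by call, with a bar at the list median. The CMG set and the fork partners are red throughout in Jak2V617F dKO against WT, with medians of 1.14 and 0.97, while most genes of all lists are open in Jak2WT dKO against WT.

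Genes outside the set were ranked by how closely they followed it, as the root-mean-square difference of their log2(FPKM + 1) profile, centred over the 8 libraries, from the mean centred profile of the members. The closest 8 of 11808 were Rfc4, Pclaf, Cdk2, Wdhd1, Stmn1, Ada, Chaf1a and Orc1. Their differences ran from 0.0584 for Rfc4, a subunit of the clamp loader, to 0.0877 for Orc1, where the median over all genes was 0.499. Rfc4, for example, was at 26.6 to 28.8 FPKM in the 4 Jak2WT libraries, at 16.6 and 14.2 in Jak2V617F GLUT1/3 WT and at 31.7 and 33.8 FPKM in Jak2V617F GLUT1/3 dKO clones. By the same measure the members themselves lay between 0.0595 for Mcm2 and 0.242 for Gins2. These profiles all come from the same 8 libraries, and the likeness is a description.

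Markers of other lineages moved with the groups as well. The summed FPKM of 6 erythroid markers was 63.0 to 83.1 in Jak2WT GLUT1/3 WT, 199 to 246 in Jak2WT GLUT1/3 dKO, 451 to 742 in Jak2V617F GLUT1/3 WT and 1107 to 2415 in Jak2V617F GLUT1/3 dKO clones, with 4 of the 6 passing the filter and Slc4a1 at 0 in Jak2WT GLUT1/3 WT clones. The CMG genes did not follow this order, being lowest in the third of these groups. The summed megakaryocyte markers were 63.2 to 63.7 in Jak2WT GLUT1/3 WT, 85.3 to 90.2 in Jak2WT GLUT1/3 dKO, 177 to 189 in Jak2V617F GLUT1/3 WT and 187 to 240 in Jak2V617F GLUT1/3 dKO clones, 4 of 5 passing the filter and Gp1bb at 0 in all 8 libraries. With the dKO 2 of these 4 were called higher in each background, with list medians of 1.54 in Jak2V617F and 0.44 in Jak2WT cells. Mast cell and basophil markers were 51.3 to 102 in Jak2WT and 0.338 to 2.12 in Jak2V617F libraries, almost all of it Cpa3. The lymphoid markers summed to at most 0.708 FPKM. Of the myeloid list Ptprc fell by 1.66 (adjusted p = 0.000360) and Spi1 fell by 0.59 (adjusted p = 0.0124) in Jak2V617F dKO against WT. With the dKO in Jak2WT cells 1 of these 2 was called lower, the changes being -0.52 and -0.04. In Jak2V617F against Jak2WT cells with both transporters 1 of them was called higher, the changes being 0.36 and 0.18. In bulk RNA fewer cells of a type and less RNA per cell cannot be told apart, and the part of these markers in the CMG differences was not tested.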

How the data were processed

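The 8 libraries are poly-A RNA of 32D clones, sequenced as read pairs on a NovaSeq X Plus. Per the submitters' processing notes, the authors cleaned reads with fastp 1.0.1, aligned them to mm39 (GRCm39) with HISAT2 2.2.1, counted them per gene with featureCounts 2.0.6 and deposited FPKM, fragment counts scaled by gene length and library size. The annotation version, the strand setting and the total behind FPKM are not given in the sources used here. In each library the product of FPKM and gene length came in whole steps (tolerance 0.01), from which the reads per gene could be recovered. They summed to 16846011 to 48884329 per library and were used for depth and as an alternative test. At 1 FPKM, a gene of 1 kb had 39.6 reads in Jak2WT GLUT1/3 WT clone 1, where 37448557 reads lay on genes. In Jak2V617F GLUT1/3 WT clone 1 it had 21.4 reads, where 22854600 lay on genes. The total behind FPKM was thus not simply the reads on genes. FPKM values also depend on the other genes of a library, so a few abundant genes can shift all the others.

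Every column was assigned to its clone from the labels, with 0 columns left out. Genes that reached 1 FPKM in 2 or more libraries were tested with limma 3.58.1 in R 4.3.3, in a single fit of log2(FPKM + 1) on the 4 groups with an intensity trend, which gave 4 residual and 3.34 prior degrees of freedom. P-values were adjusted by Benjamini-Hochberg over the 11818 genes within each of 6 comparisons. The study's methods do not state a test for these libraries. Clones of a group count as replicates, and p-values set a difference against a spread between clones that is pooled over the 4 groups. Each clone is a single library, so spread between clones, cultures and libraries cannot be told apart. The members and gene lists were chosen with earlier results of these data known. Genes named beside the members are Slc2a1, Slc2a3 and the 8 genes with the most alike profile. From each related list, the called genes with the largest rise and the largest fall were named in each comparison described for the lists. Gins4, the genes that overlap members and the marker genes were named after their values were seen. Whether the clone numbers pair groups was checked by correlating the difference of clone 1 and clone 3 between groups, which gave -0.254 to 0.152, so they were not treated as pairs.

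The fit was also run on simulated data with known answers for Jak2V617F dKO against WT. With 200 genes changed 2-fold, 172 of the 195 that were tested were recovered, and 22 other genes were called. With no change 0 genes were called. The simulated spread between clones was the same for every gene, so the error rate in the real libraries was not measured. The alternatives were no filter or one on the mean, a pseudocount of 0.1, no trend, robust estimates, scaling to the same summed FPKM or by median ratios, voom with TMM factors on recovered reads, MCM shares counted in reads, only the groups compared, the clone number as a block, and leaving out each library. Promoter windows were matched to members by symbol, and for protein sequences no reference was used here. Some items are not reported here. Scripts ran in Python 3.11.15 with matplotlib 3.10.9.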

Additional observations from a re-analysis of the deposited data

Results flagged for a closer look

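The interaction of Jak2 background and GLUT1/3 dKO was called higher for all 10 CMG members, against 4.72% of all genes. The test was limma on log2(FPKM + 1), with Benjamini-Hochberg adjustment over all genes. It also called 10 of 12 fork partners, 5 of 9 activation, 4 of 9 origin and loading and 3 of 8 unloading genes higher. E2F and pocket protein genes were higher for 6 of 13 and lower for 1, and G2 and M phase genes higher for 6 of 16. Of 3 paralogs and binding proteins tested, 0 were called. Among the members, the difference of the log2 changes was largest for Mcm4 (1.58, adjusted p = 0.00867), Cdc45 (1.44, adjusted p = 0.0123) and Mcm3 (1.26, adjusted p = 0.00867). Gins1 (1.16), Mcm7 (1.11), Mcm2 (1.07) and Mcm5 (1.05) lay close together. Gins3 (0.97), Mcm6 (0.95) and Gins2 (0.81, adjusted p = 0.0497) were lowest. For Mcm7 the value joins a change of -0.28 in Jak2WT cells to one of 0.83 in Jak2V617F cells, and for Mcm6 it joins 0.22 to 1.17. The Gins2 call was lost in 11 of 17 alternative analyses, 6 members passed with no filter, and 0 passed without clone 3 of Jak2WT GLUT1/3 WT.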

How the results depend on the processing

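With 2 clones per group a missed call does not show that a gene did not change. Of the members' fold changes under the alternatives, 974 kept direction and side of the threshold, 82 lost and 2 gained a call, and 12 changed sign. Among the other genes named, 545 kept both, 43 lost and 5 gained a call. The sign changes were all among uncalled values. Scaled to the same summed FPKM, the Jak2WT dKO against WT change became -0.053 for Mcm2 and -0.074 for Mcm5, and for Mcm7 between the dKO groups scaling to the same sum, by median ratios and voom gave 0.022, 0.012 and 0.0064. Leaving out single libraries took Mcm2 to values between -0.042 and 0.13, Mcm5 to -0.11 and 0.16, and Mcm3 to -0.13 and 0.023 in Jak2WT dKO against WT, Mcm7 to -0.11 and 0.080 between the dKO groups, and Gins2 to -0.20 and 0.069 in Jak2V617F dKO against Jak2WT WT. For Jak2V617F dKO against WT the median of the members ran from 1.00 to 1.29 without single libraries and the count from 9 to 10. For Jak2V617F against Jak2WT among GLUT1/3 WT clones the median ran from -0.99 to -0.69 and the count from 8 to 10. The interaction median ran from 0.97 to 1.26 and its count from 0 to 10, the count between the dKO groups from 0 to 3 and that of Jak2V617F dKO against Jak2WT WT from 1 to 5. No filter gave 6 interaction calls, 1 between the dKO groups and 3 for Jak2V617F dKO against Jak2WT WT. It gave 9 for Jak2V617F dKO against WT and 9 for Jak2V617F against Jak2WT among GLUT1/3 WT clones. A fit of only the groups compared gave 0 between the dKO groups and 9 for Jak2V617F dKO against WT. Scaling to the same summed FPKM moved the median of all genes to -0.12 for Jak2V617F against Jak2WT with GLUT1/3 WT and to 0.12 for the interaction, and those of the members to -0.99 and 1.28. It also moved the split of all genes called, from 1614 higher and 1919 lower to 2189 and 1450 for Jak2V617F dKO against WT, from 901 and 716 to 706 and 1378 for Jak2WT dKO against WT, from 1812 and 1765 to 1225 and 2932 for Jak2V617F against Jak2WT, and from 558 and 698 to 1179 and 394 for the interaction. Voom on recovered reads called 1274 genes higher and 1183 lower for Jak2WT dKO against WT, and 1958 higher and 1996 lower for Jak2V617F dKO against WT. With the clone number as a replicate block, 3 members were called for Jak2V617F dKO against Jak2WT WT in place of 5, 9 for the interaction and 2 between the dKO groups, and the counts of 10, 0 and 10 in the other comparisons did not change. The labels give no culture or day that a clone number shares. The fits without a library hold fewer libraries, and the fit without a filter holds more genes. Why these values moved was not tested.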
